A study of Mus musculus with 3 samples.

Results

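The genes described here are 10 secreted Wnt inhibitors and Wnt feedback genes, chosen by name: Wif1, Sfrp1, Sfrp2, Frzb, Dkk1, Dkk2, Dkk4, Sostdc1, Apcdd1 and Axin2. All 10 were among the 19165 genes of the expression table, and 84 other genes of the Wnt pathway were described beside them. The table held single cells from the dorsal skin of male C57BL/6 mouse fetuses and pups at 3 stages, the embryonic days E13.5 and E16.5 and the day of birth, P0, with no transgene or other treatment. Skin of several animals was pooled into 1 droplet library per stage. The embryonic skin was dissociated with trypsin, whereas the P0 skin was digested with collagenase IV, so that digestion cannot be told apart from stage at P0, nor the library from the stage at any of the 3. With 1 library per stage there is no test and no measure of the spread between animals, and cells are not replicates. Each value below is therefore a sum of unique molecular identifiers (UMIs, which mark single captured RNA molecules) in CPM (counts per 1000000 UMIs of the group), with an exact Poisson 95% interval that covers counting error only.

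Wnt ligands bind frizzled receptors and the co-receptors Lrp5 and Lrp6, which stabilises beta-catenin and switches on target genes through Lef and Tcf factors. In embryonic skin the pathway is known for its part in dermal fate, in the hair placode, the epithelial thickening that starts a follicle, and in the dermal condensate (DC), the cluster of fibroblasts beneath it that later becomes the dermal papilla (DP). The inhibitors act outside the cell. Wif1 and the Sfrp family, with Frzb, bind Wnt ligands, the Dkk family and Sostdc1 bind the co-receptors, Apcdd1 is a membrane-bound inhibitor, and Axin2 is an intracellular scaffold of the beta-catenin destruction complex and a widely used readout of Wnt signalling.

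Promoter sequences were taken from RefSeq on GRCm38.p6, each running from 250 bases before to 50 bases after the start used by RefSeq. Such windows were used for 6 of the 10 genes. No window of Sfrp1, Dkk4, Apcdd1 or Sostdc1 was searched, so their promoters are not described. The windows were searched on both strands for 4 forms of the Lef and Tcf motif, namely CTTTGAA, then CTTTGAT, next CTTTGTA and lastly CTTTGTT. Of all 32851 windows, 5544 (16.9%) held at least 1 match. Among the 6 genes, Dkk1 held 2 matches and Wif1, Sfrp2, Frzb, Dkk2 and Axin2 held none. The stretch with both Dkk1 matches is shown because Dkk1 varied widely among dermal clusters, and those of Wif1 and Sfrp2, up to the annotated start, because these genes had the largest dermal excess of the 10 at P0 on the log2 scale with 10 added to each CPM. The RefSeq start of Dkk1 lies downstream of the GENCODE start given with the gene's position, so that the Dkk1 stretch lies before the former and inside the gene as GENCODE annotates it. Capitals mark the motif matches.
Dkk1, GRCm38 chr19:30549586-30549615, minus strand: agCTTTGAAatcccatcccggCTTTGTTgt
Wif1, GRCm38 chr10:121033754-121033959, plus strand: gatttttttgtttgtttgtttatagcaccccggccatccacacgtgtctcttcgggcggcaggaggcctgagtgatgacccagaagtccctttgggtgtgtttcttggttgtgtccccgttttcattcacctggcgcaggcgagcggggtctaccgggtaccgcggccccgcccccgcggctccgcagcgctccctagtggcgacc
Sfrp2, GRCm38 chr3:83766071-83766320, plus strand: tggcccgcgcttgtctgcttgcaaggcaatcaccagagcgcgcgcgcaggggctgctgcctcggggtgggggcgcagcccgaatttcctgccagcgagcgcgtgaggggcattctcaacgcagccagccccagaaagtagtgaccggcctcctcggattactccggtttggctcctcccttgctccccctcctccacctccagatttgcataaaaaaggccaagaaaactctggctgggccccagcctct

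There were 5962, 5208 and 5065 cells in the E13.5, E16.5 and P0 libraries, with medians of 7066.5, 11021 and 6797 UMIs per cell. Cells were clustered without the 10 genes and without the 84 pathway genes, and clusters were named from marker lists that held none of them. Dermal-like cells numbered 1962, 3292 and 2613 at E13.5, E16.5 and P0, and epithelial-like cells 203, 874 and 1474. Within them, 368 DC-like, 38 deep-dermal-like, 172 placode- or matrix-like and 90 suprabasal-like cells were named at E16.5. The P0 library held 169 DP-like, 261 upper-dermal-like, 188 deep-dermal-like, 320 matrix-like, 119 suprabasal-like and 110 inner root sheath (IRS)-like cells. The matrix-like set of P0 and the placode- or matrix-like set of E16.5 were named with the same marker list. No DC-like or placode-like set could be named at E13.5. Clusters with markers of several classes were set aside, and they comprised 2630 cells (44.1%) of the E13.5, 206 (3.96%) of the E16.5 and 308 (6.08%) of the P0 library. At E13.5 these set-aside cells held between 23.9% (Dkk4) and 47.8% (Frzb) of a member's UMIs, beside 39.6% of all UMIs, so that the E13.5 values describe the cells that could be named. The libraries shared 44, 41 and 32 cell barcodes (E13.5 with E16.5, E13.5 with P0 and E16.5 with P0).

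Wif1, Sfrp2, Dkk1 and Dkk2 were higher in the dermis at each stage, Dkk4 was higher in the epithelium at both embryonic stages, and Sostdc1 was so at E16.5 and P0. Differences are given as log2 of CPM with 10 added, which understates the change of low genes, and a gene was called past 2-fold when this difference reached 1 in size with at least 50 UMIs over both groups. At E13.5, 5 of the 10 genes were past 2-fold higher in dermal-like than in epithelial-like cells and 1 was lower, beside 7.6% of 11532 genes higher and 5.23% lower. The E16.5 library had 4 higher and 2 lower, beside 7.81% and 4.65% of 12740 genes, and the P0 library 5 higher and 1 lower of the 9 with enough UMIs, beside 7.81% and 5.44% of 12144 genes. In either direction, the share of all genes was 12.8%, 12.5% and 13.3%. The median difference over the members tested was 1.49, 0.50 and 1.45 at E13.5, E16.5 and P0, and over all genes tested 0.03, 0.05 and −0.05.

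**Figure D1:**
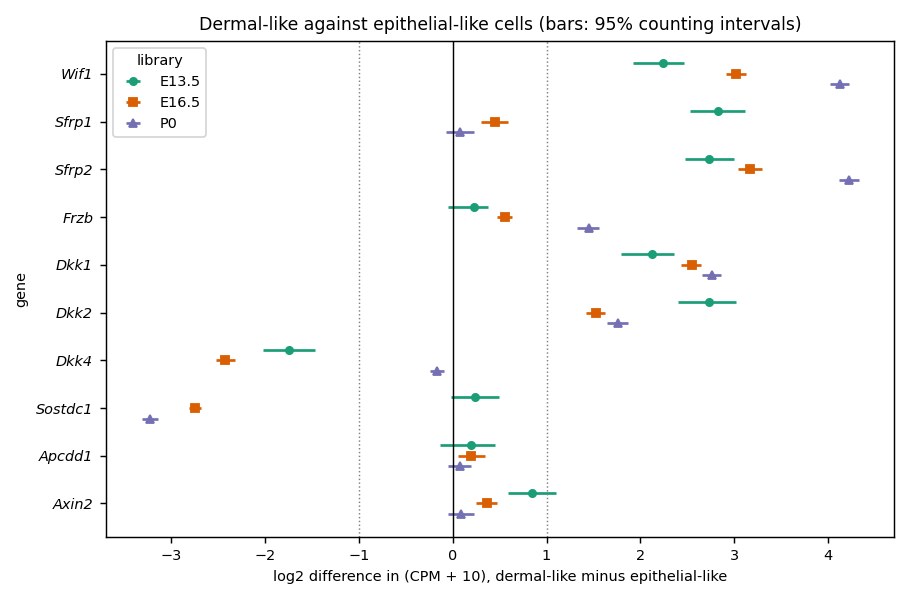
Difference between dermal-like and epithelial-like cells for each of the 10 genes at E13.5, E16.5 and P0, as log2 of CPM with 10 added, with 95% counting intervals and dotted lines at the 2-fold threshold. Wif1, Sfrp2, Dkk1 and Dkk2 lie to the dermal side at every stage, Dkk4 and late Sostdc1 lie to the epithelial side, and Apcdd1 lies near 0.

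Among the genes whose products bind Wnt ligands, Wif1 (chr10:121033960-121100650 of GRCm38) was at 49.8 CPM (95% interval 46.5 to 53.2) in the E13.5 dermal-like cells, and its level there was 318 CPM (312 to 323) at E16.5 and 442 CPM (432 to 452) by P0. The epithelial-like cells of the same libraries held 2.60, 30.5 and 15.9 CPM, and the log2 difference was 2.25, 3.02 and 4.12. Wif1 was thus low in the E13.5 dermis and high in both later libraries, with dermal and epithelial intervals apart at each stage. A Wif1 UMI was found in 25.8%, 76.5% and 74.6% of dermal-like cells at E13.5, E16.5 and P0, and in 13.9%, 55.3% and 61.9% after each cell was thinned to 3500 UMIs. Endothelial-like cells, taken as background, held one in 2.74%, 22.8% and 15.3% of cells, and in 1.37%, 4.62% and 8.09% after thinning. Median depths of the dermal-like cells were 8377.5, 10402.5 and 6003 UMIs.

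Sfrp2 (chr3:83766321-83774316), whose product carries a frizzled-like domain, was at 261 CPM (254 to 269), 146 CPM (142 to 150.2) and 490.3 CPM (480 to 501) in the dermis at E13.5, E16.5 and P0. Epithelial-like cells held 30.8, 7.32 and 16.8 CPM, with log2 differences of 2.74, 3.17 and 4.22. The dermal level was lowest at E16.5 and highest at P0.

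Sfrp1 (chr8:23411502-23449632), a close relative of Sfrp2, had another course. In the E13.5 library it was at 187 CPM (181 to 194) in dermal-like and 17.8 CPM in epithelial-like cells, a log2 difference of 2.83. At E16.5 the dermal level was 16.8 CPM (15.5 to 18.1) against 9.61, and at P0 9.88 CPM (8.45 to 11.5) against 8.82, where the difference of 0.08 had an interval (−0.07 to 0.23) that included 0. Sfrp1 was therefore a dermal gene past 2-fold at E13.5 and at neither later stage.

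Frzb (chr2:80411970-80447625, minus strand), also called Sfrp3, was scarce in the skin as a whole, with 205, 194 and 377 UMIs per library. Its dermal level was 2.76, 4.91 and 19.5 CPM at E13.5, E16.5 and P0, and its epithelial level 0.867, 0.148 and 0.787 CPM. The log2 difference was 0.23, 0.56 and 1.45 with 10 added to each CPM, past 2-fold at P0. With 1 added it was 1.01, 2.37 and 3.52, past 2-fold at all 3 stages. The epithelial values rest on 2, 2 and 15 UMIs. With 10 added, the E13.5 interval of −0.05 to 0.37 included 0. Dermal-like cells held 93.8% of the Frzb UMIs of the E16.5 library and 88.3% of those of P0. At E13.5 the cartilage- or tendon-like cells had the highest Frzb level, 13.2 CPM (9.06 to 18.7), with an interval that overlapped the next set.

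Among the co-receptor-binding inhibitors, Dkk1 (chr19:30545863-30549665, minus strand) was at 47.0 CPM (43.8 to 50.3), 60.3 CPM (57.8 to 62.8) and 68.0 CPM (64.2 to 72.0) in the dermis of the E13.5, E16.5 and P0 libraries. Epithelial-like cells held 3.03, 2.00 and 1.47 CPM. Dermal-like cells carried 62.0%, 92.7% and 93.9% of all Dkk1 UMIs of the E13.5, E16.5 and P0 libraries, while holding 33.3%, 55.9% and 36.7% of all UMIs. The dermal level of Dkk1 thus stayed between 47.0 and 68.0 CPM, although its clusters differed widely, as given below.

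Dkk2 (chr3:132085292-132180304), a co-receptor ligand of the same family, was at 117 CPM (112 to 122) in the E13.5 dermal-like cells and at 21.6 CPM (20.1 to 23.1) and 27.7 CPM (25.2 to 30.3) in those of the later libraries. The epithelial-like cells were at 9.10, 0.961 and 1.10 CPM, and the log2 difference was 2.73, 1.53 and 1.76. Dkk2 and Sfrp1 were both highest in the E13.5 dermis.

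Dkk4 (chr8:22624043-22627547) was the 1 gene of the 10 that was epithelial at both embryonic stages. Epithelial-like cells held 25.1 CPM (19.1 to 32.5) at E13.5 and 49.0 CPM (45.3 to 52.8) at E16.5, against 0.450 and 0.945 CPM in dermal-like cells, with log2 differences of −1.75 and −2.43. At P0 the whole library held 32 Dkk4 UMIs, of which 26 lay in epithelial-like cells, too few for a call.

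Sostdc1 (chr12:36314139-36318452), which binds both Lrp co-receptors and BMP ligands, was at 48.3 CPM (45.1 to 51.6) in dermal-like and 39.4 CPM (31.8 to 48.4) in epithelial-like cells of the first library, and these intervals overlapped. The dermal level stayed at 46.2 CPM (44.0 to 48.4) at E16.5 and 48.7 CPM (45.4 to 52.1) at P0, whereas the epithelial level was 367 CPM (357 to 378) and 540.3 CPM (530 to 551). The log2 difference was 0.24, −2.75 and −3.23. Between these tissues the stage difference thus lay in the epithelium, with dermal levels that overlapped over all 3 libraries, and the Schwann-like cells, described further on, differed by stage as well. A Sostdc1 UMI was present in 75.4% and 68.8% of epithelial-like cells at E16.5 and P0 (48.9% and 52.8% after thinning), and in 14.2% and 12.8% of endothelial-like cells (3.38% and 5.53%).

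Of the feedback genes, Axin2 (chr11:108920349-108950783) was at 73.2 CPM (69.3 to 77.3), 59.1 CPM (56.7 to 61.7) and 25.3 CPM (23.0 to 27.8) in the dermis and at 36.4, 43.9 and 23.1 CPM in the epithelium, in order of stage. The log2 differences of 0.84, 0.36 and 0.09 did not pass 2-fold at any stage. Apcdd1 had few UMIs, with 231, 604 and 94 per library. Its level was 5.46, 10.0 and 2.57 CPM in dermal-like and 3.47, 7.47 and 1.94 CPM in epithelial-like cells, and the leading sets in its order of levels overlapped at every stage.

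Dermal RNA was also found in the epithelial-like cells. The 8 dermal marker genes, none of them at 0, summed to 9.26%, 8.57% and 3.23% of their dermal-like level in the epithelial-like cells at E13.5, E16.5 and P0. In turn, the 8 epithelial marker genes summed to 0.893%, 3.09% and 3.35% of their epithelial-like level in the dermal-like cells, in order of stage. The part of such RNA in the epithelial values and in the dermal values, among them those of Sostdc1, was not tested.

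**Figure D2:**
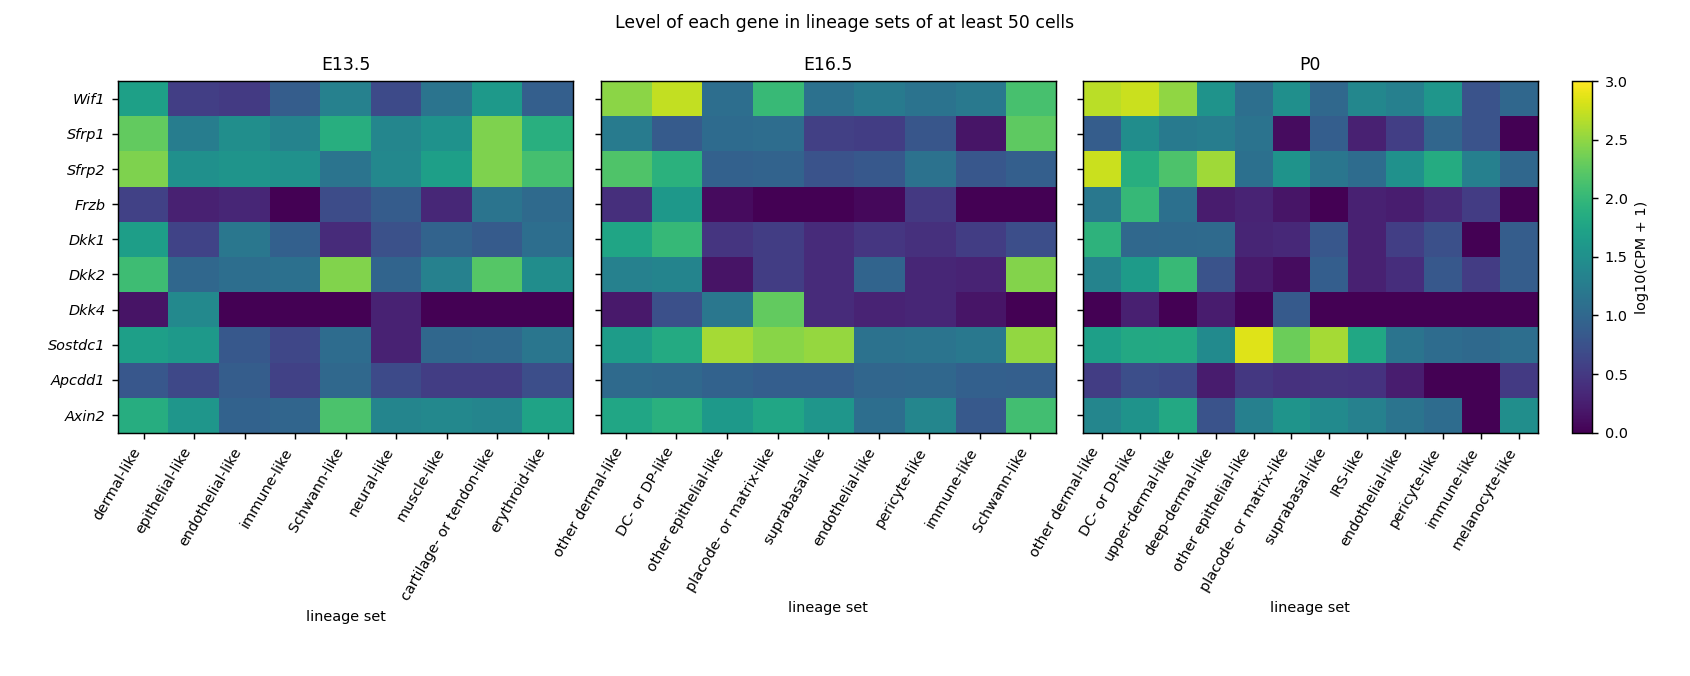
Heat map of the level of each of the 10 genes, as log10 of CPM plus 1, in every named set of at least 50 cells of the 3 libraries. Brighter colours mark higher levels. Wif1, Sfrp2 and Dkk1 are bright in most dermal sets, Sostdc1 in most epithelial sets of E16.5 and P0, and Dkk4 in the placode- or matrix-like cells of E16.5.

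Inside the dermis the genes differed between clusters more than the whole-dermis values show. The 10 dermal-like clusters at E13.5 ranged from 56.6 to 1010.0 CPM for Sfrp2, from 3.72 to 83.3 CPM for Dkk1, from 24.4 to 337 CPM for Dkk2 and from 8.06 to 120 CPM for Wif1. The cluster with the highest Sfrp2, of 161 cells and led by Gata6, Klf4 and Arhgap20, also had the highest Dkk2 and Sfrp1 (555 CPM) and the lowest Dkk1. The cluster with the highest Wif1 and Dkk1, of 300 cells and led by Slitrk6, Calb1 and Ass1, had the lowest Sfrp2 and Dkk2 and the highest Axin2 (107 CPM). So the E13.5 dermis held a high-Sfrp2, high-Sfrp1, high-Dkk2 end and a high-Wif1, high-Dkk1, high-Axin2 end.

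Over these 10 clusters the log2 levels of Sfrp2 and Dkk1 had a Pearson r of −0.97 (Spearman rho −0.92), Sfrp2 and Dkk2 an r of 0.96 (0.96), and Wif1 and Axin2 an r of 0.86 (0.84). The clusters share a library, its depth and free RNA, so these are descriptions. At E16.5, over 15 dermal-like clusters, Sfrp2 and Dkk1 had an r of −0.93, Sfrp2 and Dkk2 an r of 0.86 (0.74), and Wif1 and Axin2 an r of 0.89 (0.69). The genes of each end varied together there too, with an r of 0.73 for Sfrp1 and Sfrp2 and 0.79 for Wif1 and Dkk1. However, they did not all peak in the same clusters. Sfrp1 (111 CPM) and Dkk2 (131 CPM) peaked in a deep-dermal-like cluster led by Ly6a and Mfap5. Wif1 (587 CPM) and Dkk1 (167 CPM) peaked in a DC-like cluster led by Foxd1, and Axin2 (93.6 CPM) in a cluster led by histone genes. The cluster with the highest Sfrp2 (480 CPM, 153 cells, led by C1qtnf3, Aspn and Angptl1) had the lowest Dkk1, 2.44 CPM, and Dkk2 at 104 CPM. A cluster of 405 cells led by Kcnk2 and Elmo1 had Dkk1 at 141 CPM, Wif1 at 461 CPM and Sfrp2 at 31.0 CPM.

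The P0 values were arranged otherwise. Over 17 dermal-like clusters, Sfrp2 and Dkk1 had an r of 0.05 (rho 0.15), and Sfrp2 and Dkk2 an r of −0.47 (−0.48). Dkk2 and Axin2, which had opposite courses over clusters at E13.5 (r −0.70) and E16.5 (r −0.83), had an r of 0.84 (0.82) at P0. The cluster with the highest Sfrp2 (1327 CPM, 374 cells) was led by Cxcl2, Thbs2 and C1qtnf3 and had Dkk1 at 9.62 CPM and Wif1 at 419 CPM. Dkk1 reached 285 CPM in a cluster of 240 cells led by Sost, Coch and Aqp1 and 239 CPM in a cluster of 48 cells led by the smooth muscle genes Acta2 and Tagln. In these 2 clusters Axin2 was at 12.99 and 2.91 CPM, among the lower dermal values. The difference between the stages in these correlations was not tested.

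**Figure D3:**
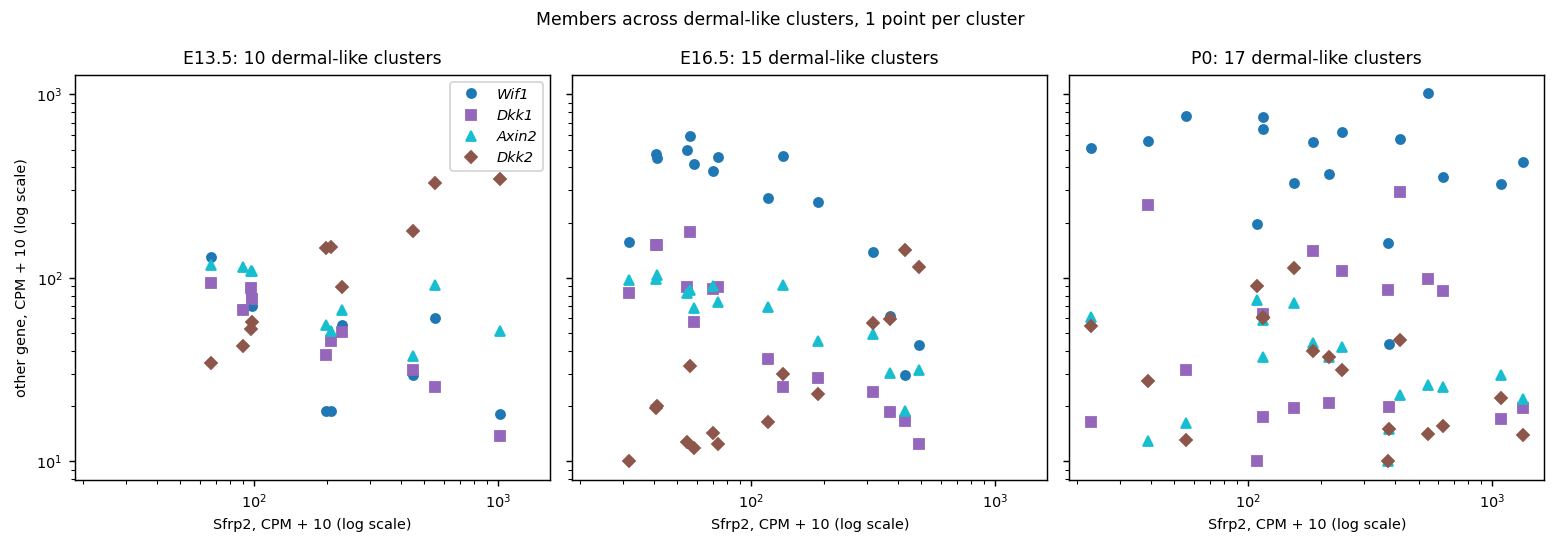
Level of Wif1, Dkk1, Axin2 and Dkk2 against Sfrp2 in each dermal-like cluster (10, 15 and 17 clusters in order of stage), as CPM with 10 added on log axes. Dkk1 falls and Dkk2 climbs along Sfrp2 at E13.5 and E16.5, and the P0 clusters show neither slope.

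Upper-dermal-like and deep-dermal-like cells, named for the layers nearest the epidermis and nearest the fat, were compared at P0 only, with 261 and 188 cells. Each was 1 cluster, and 1995 other dermal-like cells of P0 were in neither set nor DP-like. Those cells were above both sets in Wif1 (486 CPM), Sfrp2 (576 CPM) and Dkk1 (85.6 CPM). They lay between the 2 sets in Dkk2 (20.9 CPM), Axin2 (22.9 CPM) and Sostdc1 (48.1 CPM). Of the 5 members with enough UMIs, 4 were past 2-fold higher in the upper cells and 1 was lower, beside 7.03% of 5508 genes higher and 6.59% lower (13.6% in all). Wif1 was at 319 CPM (289.8 to 351) in upper and 33.5 CPM (24.7 to 44.4) in deep cells, a log2 difference of 2.92. Dkk2 was at 104 against 4.89 CPM (2.93), Axin2 at 63.2 against 4.89 CPM (2.298) and Sostdc1 at 64.7 against 26.5 CPM (1.03). Sfrp2 had the opposite direction, at 145 CPM (125 to 167) in upper and 368 CPM (337 to 401) in deep cells, a log2 difference of −1.29, which was −0.70 at a clustering resolution of 2. Dkk1, at 9.56 and 9.77 CPM, had 13 and 14 UMIs and was not called. The 6 adipocyte markers, none of them at 0, summed to 3772 CPM in the deep cells and 155 CPM in the upper cells, and their part in these differences was not tested. The 38 deep-dermal-like cells of E16.5, where no upper-dermal-like set was named, held Dkk2 at 131 CPM, Sfrp1 at 111 CPM and Wif1 at 19.7 CPM. Dkk2 was thus at 131 CPM in the deep set of E16.5, a single cluster, and at 4.89 CPM in that of P0. The deep sets were not compared between the stages. At P0, other pathway genes lay on both sides of the comparison. Of 32 pathway genes with enough UMIs, 10 were higher in the upper cells, among them the agonist Rspo3 (3.41), the feedback gene Nkd1 (3.23) and Wls (3.07), which carries Wnt ligands to the cell surface, and 6 were lower, among them Igfbp4 (−2.80), Fzd4 (−2.71) and Lgr4 (−1.54).

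At E16.5 the DC-like cells stood apart from the other dermal-like cells in Frzb alone among the 9 members with enough UMIs, beside 2.63% of 11984 genes past 2-fold higher and 2.8% lower (5.43% in all). Frzb was at 38.2 CPM (32.0 to 45.4) in the 368 DC-like cells and at 1.55 CPM in the other 2924, a log2 difference of 2.06 (1.85 to 2.27). A Frzb UMI was found in 24.7% of DC-like cells (11.1% after thinning) and in 0.229% of epithelial-like cells (0.114%), with median depths of 8517 and 13131.5 UMIs. The other log2 differences with 10 added to each CPM were under 1 in size. Wif1 was at 528 CPM (504 to 553) in the condensate cells against 296 CPM in the rest (0.81), Dkk1 at 100.3 against 56.2 CPM (0.74), Sostdc1 at 68.0 against 44.0 CPM (0.53) and Axin2 at 78.3 against 57.2 CPM (0.39). Sfrp2, at 80.9 against 153 CPM (−0.84), and Sfrp1, at 6.18 against 17.8 CPM (−0.78, and −1.39 with 1 added to each CPM in place of 10), were on the lower side. Dkk2, at 21.8 and 21.6 CPM, differed by 0.01 with an interval of −0.23 to 0.25.

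The direction of Dkk1 depended on which cells were called DC-like. Without called doublets, 212 DC-like cells were named and the Dkk1 difference was −0.54, and over the other clustering and naming settings tried it lay between 0.22 and 1.06. Frzb stayed past 2-fold in all of them.

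The DC-like cells comprised 2 clusters that were unlike in Dkk1. One, of 194 cells and led by Foxd1, Dclk1 and Cdkn1a, had Dkk1 at 167 CPM (149 to 187), and the other, of 174 cells and led by Bmp3, Hes5, Bmp4, Sox2 and Sox18, at 15.4 CPM (9.74 to 23.1). Frzb was at 19.5 CPM in the former and 62.1 CPM in the latter, Wif1 at 587 and 454 CPM, and Sfrp2 at 46.3 and 125 CPM. The intervals of Dkk1 were far apart, while Axin2, at 75.7 and 81.5 CPM, was alike. Cdkn1a encodes a cell cycle inhibitor and Sox2 and Sox18 are DC transcription factors.

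The P0 counterpart, the DP-like cells, had Frzb still higher. Of the 8 members with enough UMIs, 2 were past 2-fold higher and 2 lower in the 169 DP-like cells than in the other 2444 dermal-like cells, beside 6% of 10533 genes higher and 3.91% lower (9.91% in all). Frzb was at 101 CPM (83.7 to 121) against 13.49 CPM, a log2 difference of 2.24, and Sfrp1 at 28.3 CPM (19.5 to 39.7) against 8.54 CPM (1.05). Dkk1 was at 9.43 CPM (4.71 to 16.9) against 72.3 CPM (−2.08) and Sfrp2 at 74.6 CPM (59.7 to 92.0) against 521 CPM (−2.65). Wif1, at 582 against 431 CPM, differed by 0.42. The Sfrp1 value rests on 33 UMIs, and with every cell given equal weight the difference was 0.87. Of the 4 DP-like clusters, of 43, 59, 37 and 30 cells, Frzb was at 115, 79.1, 58.7 and 185 CPM, above the other dermal-like cells in each. Dkk1 was at 7.34, 21.3, 0 and 6.38 CPM in these clusters. The summed dermal markers stood at 37.4% of the whole dermal level in DC-like and at 11.7% in DP-like cells, and the part of this lower level in the differences was not tested.

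Between the stages, DP-like cells at P0 set against DC-like cells at E16.5 showed Sfrp1 higher by 1.24 and Frzb by 1.20 on the log2 scale, Dkk1 lower by a difference of −2.51 and Axin2 by −1.02, and Wif1 at 0.14 and Sfrp2 at −0.10. These 2 higher and 2 lower calls of 8 stand beside 4.42% and 4.45% of 8063 genes (8.87% in all). The Axin2 and Frzb differences lay close to the threshold. Axin2 was between −0.77 and −0.99 under 4 other settings, and Frzb was at 0.96 without called doublets and 0.95 with at least 2500 genes per cell. Dkk2, at 0.76, was past 2-fold at a clustering resolution of 0.5 (1.02) and with at least 2500 genes per cell (1.21).

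**Figure D4:**
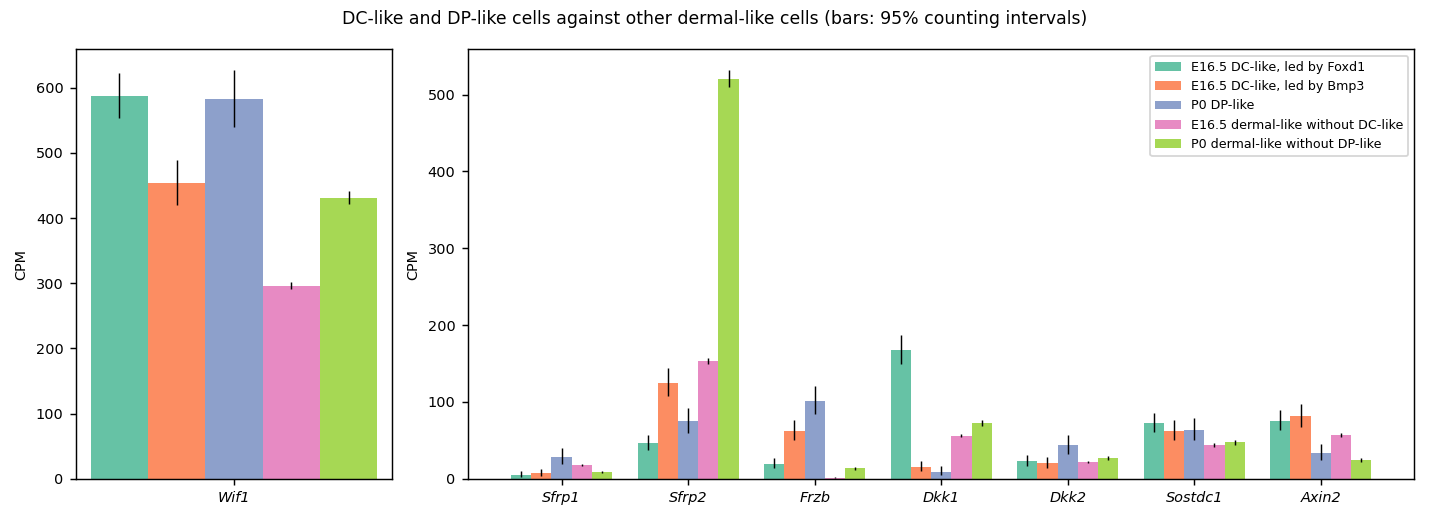
Level of Wif1, Sfrp1, Sfrp2, Frzb, Dkk1, Dkk2, Sostdc1 and Axin2 in the Foxd1-led and Bmp3-led DC-like clusters of E16.5, in the DP-like cells of P0 and in the remaining dermal-like cells of both stages, as CPM with 95% counting intervals. Frzb is highest in the DP-like cells, and Dkk1 is high in the Foxd1-led cluster and low in the Bmp3-led cluster and in the DP-like cells.

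Other pathway genes separated the DC and DP from the rest of the dermis. In DC-like cells 12 of 64 were past 2-fold higher and 2 lower, beside 2.63% and 2.8% of all genes tested. Igfbp4 (2.195), the agonist Rspo3 (1.86) and the transcription factor Lef1 (1.74) were furthest up and Sfrp5 (−1.57) and the target gene Sp5 (−1.29) down. In DP-like cells 17 of 60 were higher and 1, Wls (−1.45), was lower, beside 6% and 3.91% of all genes tested. The leading ones were Rspo1 (3.72), Wnt5a (3.45), a ligand of mainly non-canonical signalling, and Notum (3.42), an enzyme that inactivates Wnt ligands by removing their lipid. Agonists, ligands and inhibitors were thus among the higher genes of the same cells.

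In the epithelium, Dkk4 and Wif1 marked the placode- or matrix-like cells at E16.5. They were the 2 of 7 members past 2-fold there, both higher, beside 1.27% of 10234 genes higher and 1.12% lower (2.39% in all). Dkk4 was at 189 CPM (173 to 206) in the 172 placode- or matrix-like cells and 12.7 CPM in the other 702, a log2 difference of 3.13, and Wif1 was at 104.5 CPM (92.9 to 117) against 11.3 CPM (2.42). A Dkk4 UMI was found in 34.3% of the placode- or matrix-like cells (24.4% after thinning) against 0.608% of dermal-like cells (0.273%), with median depths of 11827.5 and 10402.5 UMIs. Dermal markers stood at 10.6% of their dermal level in the placode- or matrix-like and at 8.03% in the other epithelial-like cells. Axin2 was at 58.0 against 40.2 CPM (0.44) and Sostdc1 at 292 against 387 CPM (−0.40).

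Dkk4 and Wif1 did not peak in the same cluster. The cluster of 111 cells led by the placode genes Fgf20, Bmp2, Ascl4 and Shh had Dkk4 at 332 CPM, Wif1 at 55.4 CPM and Sostdc1 at 199 CPM. The cluster of 61 cells led by Lhx2, Nrp2 and Pthlh had Dkk4 at 17.5 CPM, Wif1 at 164 CPM and Sostdc1 at 404 CPM. Sostdc1 was highest, at 975 CPM, in a cluster of 52 cells led by Ccer2, Pou4f3 and Krt8, where Axin2 was at 7.88 CPM. Atoh1, the Merkel cell transcription factor, was among this cluster's leading genes. At E13.5, Dkk4 was at 109 CPM in 1 epithelial-like cluster of 54 cells, led by Lef1, Irx4 and Wnt3, which also had the highest Sostdc1, 126 CPM, of the 4 epithelial-like clusters.

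**Figure D5:**
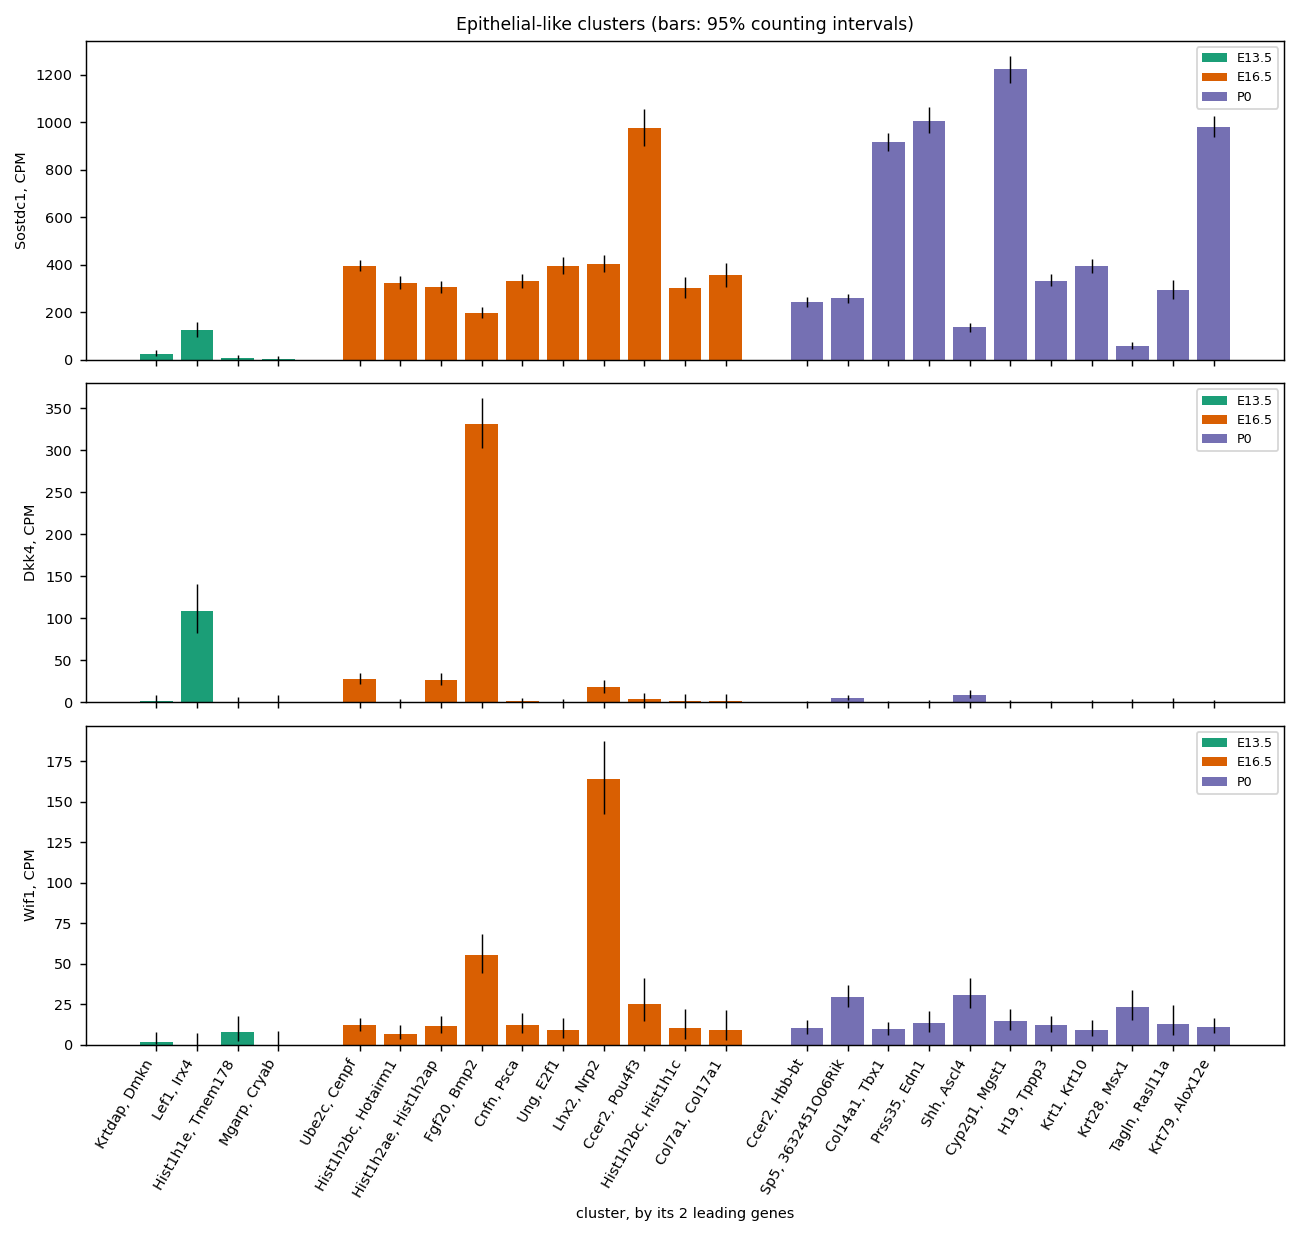
Level of Sostdc1, Dkk4 and Wif1 in each epithelial-like cluster of the 3 libraries, as CPM with 95% counting intervals, with clusters named by 2 leading genes other than the members. Dkk4 stands out in 1 cluster at E13.5 and in the Fgf20-led cluster at E16.5, and Sostdc1 varies from 59.6 CPM in the IRS-like cluster to 1222 CPM at P0.

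At P0 the matrix-like cells held little Dkk4. The matrix is the proliferating base of the follicle, but the markers used did not tell its cells from placode cells. Of 5 members with enough UMIs, 1 was past 2-fold higher and 2 were lower than in the other epithelial-like cells, beside 1.01% and 2.35% of 10587 genes (3.36% in all). Sostdc1 was at 213 CPM (199 to 227) in the 320 matrix-like cells against 630 CPM in the other 1154 (−1.52), and Sfrp1 at 0.244 CPM, from 1 UMI, against 11.2 CPM (−1.05, and −0.88 at a clustering resolution of 0.5). Sfrp2 was at 34.2 CPM (28.8 to 40.4) against 12.03 CPM, a difference of 1.005 at the threshold, which was 0.04 with the mixed clusters kept in. Dkk4 had 25 UMIs, 6.11 CPM, in the matrix-like cells and 1 UMI in the other epithelial-like cells, too few for a call. Set against the placode- or matrix-like cells of E16.5, the P0 matrix-like cells were lower in Dkk4 (−3.63) and Wif1 (−1.53) and higher in Sfrp2 (1.30), which are 2 and 1 of 5 members beside 4.25% and 2.3% of 8654 genes (6.55% in all). Sostdc1 differed by −0.44 here, by −1.38 at a clustering resolution of 0.5 and by −1.29 without called doublets.

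Among the epithelial-like clusters of P0, Sostdc1 was highest in clusters other than those named matrix-like. It reached 1222 CPM in a cluster led by Cyp2g1, Mgst1 and Cidea, where Sfrp1 was at 68.8 CPM, and 1007 CPM in a cluster led by Prss35 and Edn1. A Krt79-led cluster held 981 CPM and a cluster led by Col14a1, Tbx1 and the stem cell gene Lgr5 held 916 CPM. The 110 IRS-like cells, led by the keratins Krt28 and Krt25, held 59.6 CPM (46.4 to 75.4). Suprabasal-like cells, the differentiating epidermis, were at 330.3 CPM (301 to 361) at E16.5 and 393 CPM (363 to 425) at P0, a log2 difference of 0.24. There, 0 of the 2 members with enough UMIs were past 2-fold between the stages, beside 3.68% of 6204 genes higher and 10.2% lower at P0 (13.8% in all).

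The other pathway genes were split between the tissues. At E13.5, 14 of 65 were past 2-fold higher in dermal-like than in epithelial-like cells and 10 were lower. The shares of all genes tested were 7.6% and 5.23%. Rspo1 (3.28), Nkd1 (3.09) and Wnt5a (2.93) were furthest to the dermal side and Wnt6 (−3.33), Kremen2 (−3.18), a Dkk receptor, and Wnt7b (−2.79) furthest to the epithelial side. At E16.5 the counts were 13 and 19 of 71, beside 7.81% and 4.65% of all genes tested. At P0 they were 14 and 17 of 72, beside 7.81% and 5.44%. Kremen2 remained on the epithelial side, at −3.76 and −2.93. Nkd1 was dermal at 3.29 and 2.80, and Rspo3 at 3.24 and 3.67. Among placode- or matrix-like cells, 4 of 52 pathway genes were higher and 1 lower at E16.5, beside 1.27% and 1.12% of all genes tested. The higher ones were led by Sp5 (1.71) and the receptor Lgr6 (1.41). At P0, 5 of 61 were higher and 3 lower, beside 1.01% and 2.35%. Sp5 (3.19), Nkd1 (1.81) and Notum (1.81) were furthest up, with Wnt7b (−1.72), Wnt4 (−1.61) and Igfbp4 (−1.45) down. Between the stages, 7 of 46 were higher and 1 lower in DP-like than in DC-like cells, beside 4.42% and 4.45% of all genes tested. In matrix-like cells the counts were 4 and 4 of 49, beside 2.3% and 4.25%. The counts of 0 and 2 of 34 in suprabasal-like cells stand beside 3.68% and 10.2%.

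Outside dermis and epithelium, the Schwann-like cells, the glia of skin nerves, held high levels of several members. At E13.5, 61 of them had Dkk2 at 272 CPM (236 to 311) and Axin2 at 140 CPM (115 to 169.8), and at E16.5, 72 had Dkk2 at 274 CPM (237 to 316), Sfrp1 at 181 CPM (151 to 216) and Axin2 at 121 CPM (96.9 to 150.0). Each of these was the highest level of its library among sets of at least 50 cells, with an interval apart from that of the next set. Sostdc1 in the Schwann-like cells was at 10.6 CPM (4.58 to 20.9) at E13.5, 324 CPM (283 to 369) at E16.5 and 1160 CPM (1028 to 1303) in the 48 cells of P0. The P0 cells had Sfrp1 at 434 CPM (356 to 525), Dkk2 at 36.9 CPM (16.9 to 70.0) and Axin2 at 65.6 CPM (37.5 to 106). Sfrp1 was thus far higher in the Schwann-like cells than in the dermis at both later stages. Wif1 was at 19.9, 131 and 73.8 CPM in the Schwann-like cells in order of stage, below the dermal level each time. Dermal markers stood at 13.2%, 17.1% and 21.5% of their dermal level in these cells, while the dermal level of Dkk2 itself was 117, 21.6 and 27.7 CPM.

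Cartilage- or tendon-like cells, 287 in number at E13.5, had the highest Sfrp1 of that library, 259 CPM (239 to 280.2), and an Sfrp2 level of 262 CPM (242 to 283), which overlapped that of dermal-like cells. Dermal markers stood at 91.4% of their dermal level in these cells. The 7 cartilage and tendon markers summed to 761 CPM in them and to 49.6 CPM in dermal-like cells. The part of dermal cells or dermal RNA in the values of this set was not tested.

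For each member, the 5 genes with the most similar course over the 30 named sets of the 3 libraries were found by Pearson's r of log2 levels, as a description over sets that share libraries and depth. Fgf20, one of the placode markers, was nearest to Dkk4 (0.94). Sfrp2 was nearest to Pdgfra (0.91), a dermal marker, and Mfap4 (0.91). Sapcd1 (0.88) and Itih5 (0.86) were nearest to Wif1, and Apela (0.87) and Twist2 (0.85), another dermal marker, to Dkk1. Fgf20, Pdgfra and Twist2 were among the markers that named the sets, so their r with a member can be partly built in. Frzb was nearest to A630023P12Rik (0.90) and Smoc1 (0.90), Sostdc1 to Zfp64 (0.89) and Arhgef19 (0.88), and Dkk2 to Sgcd (0.87). Sfrp1 and Dkk2 were each among the 5 nearest genes of the other (0.83). Axin2 had no gene above 0.76, and the list of Apcdd1 was led by Gm26917 (0.83).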

How the data were processed

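One droplet library (10x Genomics) per stage was made from pooled dorsal skin, and the authors, per the labels and their methods, counted reads with Cell Ranger 2.2.0 on mm10 and filtered and normalised cells in Seurat. The deposited values are natural log values of 1 plus UMIs per 10000 UMIs of the cell. Whole UMIs were recovered for all 48197283 values above 0, within 0.001 of a whole number, and summed over cells. The table holds 16235 barcodes, all with at least 1750 genes, more than the cell number given in the study's text, and 1 of them had under 3500 UMIs. The count precision follows from the UMIs behind each value, given as exact Poisson intervals, and exact binomial intervals were computed for shares of cells. Reads collapsed to UMIs are still subject to capture and amplification, and the intervals and the floor of 3 UMIs cover counting error only.

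Cells were clustered per library with scanpy 1.11.5 and leidenalg 0.10.2 (Python 3.11.15, numpy 2.4.6, scipy 1.17.1), with the 10 members and 84 pathway genes left out of the variable genes. Clusters were named from 12 class lists and 7 subset lists of markers. The rules that set aside mixed clusters, recluster within classes and require several subset markers were set after clusters were seen. The members, pathway genes and marker lists were chosen with earlier results of these data known. All 10 members are named, with the pathway genes of largest difference on each side of a comparison. Between stages, only DC- and DP-like, placode- or matrix-like and suprabasal-like cells were compared. Scrublet called 0, 84 and 106 doublets at E13.5, E16.5 and P0, a count of 0 that was taken as a failure of the caller at E13.5 without a test, and called cells were kept in the main values. The scripts were tested on simulated data. Gene positions are from the GENCODE annotation of GRCm38 and promoters from RefSeq. The split of the Schwann-like cells into clusters is not reported here. An aligner version beyond Cell Ranger's was not given in the sources used here.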

Additional observations from a re-analysis of the deposited data

Results flagged for a closer look

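Sfrp1 and Dkk1 differed in direction between the DC-like cells at E16.5 and the DP-like cells at P0, each set against the other dermal-like cells of its library, with counting intervals that lay on opposite sides of 0. Sfrp1 had a log2 difference of −0.78 in the DC-like cells (21 UMIs) and of 1.05 in the DP-like cells (33 UMIs). Dkk1 had a log2 difference of 0.74 in the DC-like cells and of −2.08 in the DP-like cells. With 1 library per stage, the difference between these effects was not tested, and these libraries also differ in digestion, which cannot be told apart from stage. The direction of Sfrp1 was the same under every clustering and naming setting tried, whereas the Dkk1 value of the DC-like cells was −0.54 without called doublets, which leaves 212 DC-like cells in place of 368.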

How the results depend on the processing

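In the 11 comparisons, 40 member values were past 2-fold. Of these, 34 kept a difference of at least 1 in size under every alternative that gave a value. The other 6 did not under at least 1 alternative, and none of the 40 turned its direction. This split goes by the size of the difference alone, without the rule of at least 50 UMIs. The counts of genes past 2-fold given below apply both rules. The value of Dkk1 in DC-like cells at E16.5, under 2-fold at 0.74, was −0.54 without called doublets. At a clustering resolution of 0.5, the pathway genes past 2-fold were 14 for matrix-like against other epithelial-like cells at P0 (8 in the main setting), 5 for matrix-like cells between the stages (8) and 4 for suprabasal-like cells between the stages (2). Among classes of at least 50 cells, 4 members were then highest in the dermal-like class at P0 (7). The main count leaves out the 48 Schwann-like cells of P0, where Sfrp1 was far higher, and the share of all genes was not counted. At a resolution of 2, 1 member was past 2-fold in matrix-like cells at P0 (3) and 5 pathway genes between suprabasal-like cells. Without called doublets, 1 member was past 2-fold between DP- and DC-like cells (4) and 5 pathway genes between matrix-like cells. With at least 2500 genes per cell, the counts were 13 pathway genes in matrix-like cells at P0, 2 members between DP- and DC-like cells and 7 pathway genes between suprabasal-like cells. With the median of clusters as naming reference, 2 members were past 2-fold in DC-like cells (1), as with 1 added to each CPM in place of 10 and with clusters led by another class left out. With every cell weighted equally, 4 pathway genes were past 2-fold between suprabasal-like cells. With 1 added to each CPM, the pathway counts were 28 for DP-like cells (18), 11 for placode- or matrix-like cells at E16.5 (5), 14 between matrix-like cells and 8 between suprabasal-like cells. The cause of these shifts was not tested. Keeping the mixed clusters and leaving out clusters led by another class were chosen after seeing the data. The comparison of upper with deep dermal cells could not be made with at least 2500 genes per cell or the median reference. No paired analysis was possible because each stage has 1 library and no replicate number, and no replicate could be left out. With 32 UMIs in the library, Dkk4 had too few UMIs for a call between sets of P0.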
